A study of Mus musculus with 4 samples.

Results

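The levels of 9 complement genes were measured in single cells from mouse lower limb vessels: C1qa, C1qb, C1qc, C1ra, C1s1, C2, C3, C4b and Cfb. They were selected by gene symbol, out of 30406 genes that all 4 libraries list, as the genes of the C1 complex and of the enzymes and substrates that act next to it. Popliteal lymphatic vessels and the superficial saphenous vein were dissected and digested together, and each of the 4 libraries held sorted cells pooled from 3 mice. The WT library came from male C57BL/6J mice and the TNF-Tg library from male mice of a TNF transgenic line on the same background, a model of inflammatory arthritis, all labelled as 9 months old (8 to 9 months in the methods). Viable cells of both were sorted for high forward and side scatter. The other libraries, tdT1 and tdT2, held tdTomato-positive cells of male and female Cspg4-Cre;Ai9-tdTomato mice, in which the Cspg4 promoter drives Cre and Cre switches on the tdTomato reporter, and are labelled without the TNF transgene. The study reports that its single-cell experiments were run on different days and names a possible batch effect as a limitation. Genotype therefore cannot be told apart from the day of the experiment. With 1 pooled library per genotype, a difference between WT and TNF-Tg could not be tested against the spread between animals. Every interval given for such a difference is a 95% exact interval that covers counting error only.

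Complement is a cascade of plasma proteins that tags targets for removal. C1q, a recognition molecule built from A, B and C chains, binds immune complexes and dying cells and carries the serine proteases C1r and C1s. Of these, C1s cleaves C4 and C2 to form the enzyme that splits C3. Factor B, encoded by Cfb, forms the corresponding enzyme of the alternative pathway. Macrophages and dendritic cells are known sources of C1q, while hepatocytes and, in tissues, fibroblasts make the other components.

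The libraries held 1504 (tdT1), 454 (tdT2), 5488 (WT) and 3391 (TNF-Tg) cells, with a median of 4932.5 to 12660 unique molecular identifiers (UMIs) per cell. Cells were sorted into classes by summed markers, none of them a complement gene. In the same order, they comprised 1081, 247, 2205 and 1080 stromal cells and 33, 53, 1645 and 510 macrophages. Most stromal cells fell into a class with Myoc, Pi16 and Fndc1, called Pi16 stroma here (751, 104, 1427 and 491 cells), or a class with Cxcl14, Mgp and Gdf10, called Cxcl14 stroma (170, 103, 524 and 426 cells). The study treats cells with these markers as lymphatic and vascular muscle cells. Its grounds include reporter sorting, Cald1, Tpm1 and Pdgfrb expression, and muscle-related transcription factors. It also reports limited Acta2, Myh11 and Tagln and does not exclude myofibroblast contaminants. Here a list of 5 smooth muscle markers summed to 3.82 to 40.1 CPM in the 2 classes over the 4 libraries. CPM are the UMIs of a gene over the total UMIs of the class, scaled to 1000000. Cnn1 was at 0 in Cxcl14 stroma of every library. Both classes are therefore called by their marker genes. In tdT1, 226 of the Pi16 and 40 of the Cxcl14 cells were low-quality cells. Macrophages were split into Lyve1 macrophages (17, 46, 1520 and 278 cells) and Ccr2 macrophages (12, 5, 98 and 211 cells). The summed level of 8 stromal markers was 29605 to 47465 CPM in both stromal classes of WT and TNF-Tg, against 40.1 to 126 CPM in their macrophage classes. Between 1 and 5 cell barcodes per library were also found in another library.

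In the mouse genome (GRCm38, GENCODE M21) the C1q genes lie side by side on chromosome 4: C1qb at 136880129-136886187, C1qc at 136889804-136893065 and C1qa at 136895917-136898803, all on the minus strand, with 3616 and 2851 bases between neighbours. C1ra (chromosome 6, 124512405-124523443, plus strand) and C1s1 (124530345-124542359, minus strand) are 6901 bases apart with their 3′ ends facing each other. C4b (34728380-34743882), Cfb (34856374-34862518) and C2 (34862604-34898265) lie together on the minus strand of chromosome 17, with only 85 bases between Cfb and C2, and C3 lies farther along at 57203970-57228136. The 250 bases before the start of 3 members are shown to set a macrophage member beside the stromal ones, as RefSeq lists them on GRCm38.p6. C1qb is at chr4:136886201-136886450, C1s1 at chr6:124542360-124542609 and C3 at chr17:57228137-57228386, all read from the minus strand. Capitals mark matches to GAGGAA, the core bound by the myeloid factor PU.1, or to TTNNGNAA, a C/EBP-type sequence, on either strand.
C1qb: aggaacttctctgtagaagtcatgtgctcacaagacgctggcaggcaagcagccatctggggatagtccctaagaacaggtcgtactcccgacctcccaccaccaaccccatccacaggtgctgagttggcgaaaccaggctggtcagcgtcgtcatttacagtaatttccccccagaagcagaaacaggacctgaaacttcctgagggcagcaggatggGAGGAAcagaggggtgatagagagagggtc
C1s1: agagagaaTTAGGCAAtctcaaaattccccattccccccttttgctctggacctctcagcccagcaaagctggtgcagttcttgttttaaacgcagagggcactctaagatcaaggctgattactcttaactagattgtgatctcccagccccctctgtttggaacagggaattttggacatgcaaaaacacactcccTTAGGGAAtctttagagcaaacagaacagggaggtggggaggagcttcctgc
C3: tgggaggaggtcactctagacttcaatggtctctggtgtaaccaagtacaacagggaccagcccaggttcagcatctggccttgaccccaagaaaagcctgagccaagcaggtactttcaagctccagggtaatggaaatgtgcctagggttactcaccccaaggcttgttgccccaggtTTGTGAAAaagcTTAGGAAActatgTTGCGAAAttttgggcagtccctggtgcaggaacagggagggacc
The C1qb window held 1 GAGGAA, 25 to 30 bases before the start, a match that 23.3% of 32851 promoter windows of this length also hold. The C3 window held 3 C/EBP-type matches between 38 and 70 bases before the start, and the C1s1 window held 2, at 45 to 52 and 235 to 242 bases. At least 1 such match is present in 36.8% of all windows, and 3 or more in 2.61%. Windows were also listed for C1qc, with 1 GAGGAA at 188 to 193 and 1 C/EBP-type match at 74 to 81 bases, and for C1ra, with C/EBP-type matches at 22 to 29 and 65 to 72 bases. C/EBP-type letters were thus found in windows of macrophage and stromal members alike. However, 151 of the 250 bases of the C1qc window and 216 of the C1ra window lay in exons of these genes in GENCODE M21. Their C/EBP-type matches fell in that part. A second start listed for C1s1 had 1 C/EBP-type match, at 83 to 90 bases. No NF-kB-type, STAT-type (TTCNNNGAA) or IRF-type letters were found in the windows of the 5 members, and 1.41%, 7.02% and 2.98% of all windows hold them. These are matches of letters and say nothing of binding.

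The 9 genes divided between macrophages and stroma, as the plot of levels by class shows. All 3 C1q chains were higher in macrophages, while C1ra, C1s1, C2, C3 and Cfb were higher in stroma. In the edgeR quasi-likelihood test on summed UMIs of the 4 libraries, with library as a block, 6991 of 12897 genes differed between macrophages and stroma at an adjusted p below 0.05, or 54.2%, and 8 of the 9 members were among them. The replicates here are the pooled libraries, so these p-values measure the spread between libraries. C1qa, the A chain, was 9.24 ± 0.48 (SE) higher on the log2 scale in macrophages (edgeR adjusted p = 8.62e-09). C1qb and C1qc differed by 9.12 ± 0.48 and 9.03 ± 0.48. Among the stromal members, C1s1 differed most, by -7.84 ± 0.42 (edgeR adjusted p = 9.81e-09), followed by C3 at -6.28 ± 0.28, C1ra at -5.63 ± 0.31 and C2 at -4.80 ± 0.26. These 7 genes had the same direction in all 4 libraries. Cfb was only 1.36 ± 0.41 lower in macrophages on the log2 scale (edgeR adjusted p = 0.0146), and that call was lost without the TNF-Tg library, at a difference of -0.61. C4b did not pass the test, with a difference of -0.59 ± 0.32 (edgeR adjusted p = 0.137) and the sign split over the libraries, 2 against 2.

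**Figure D1:**
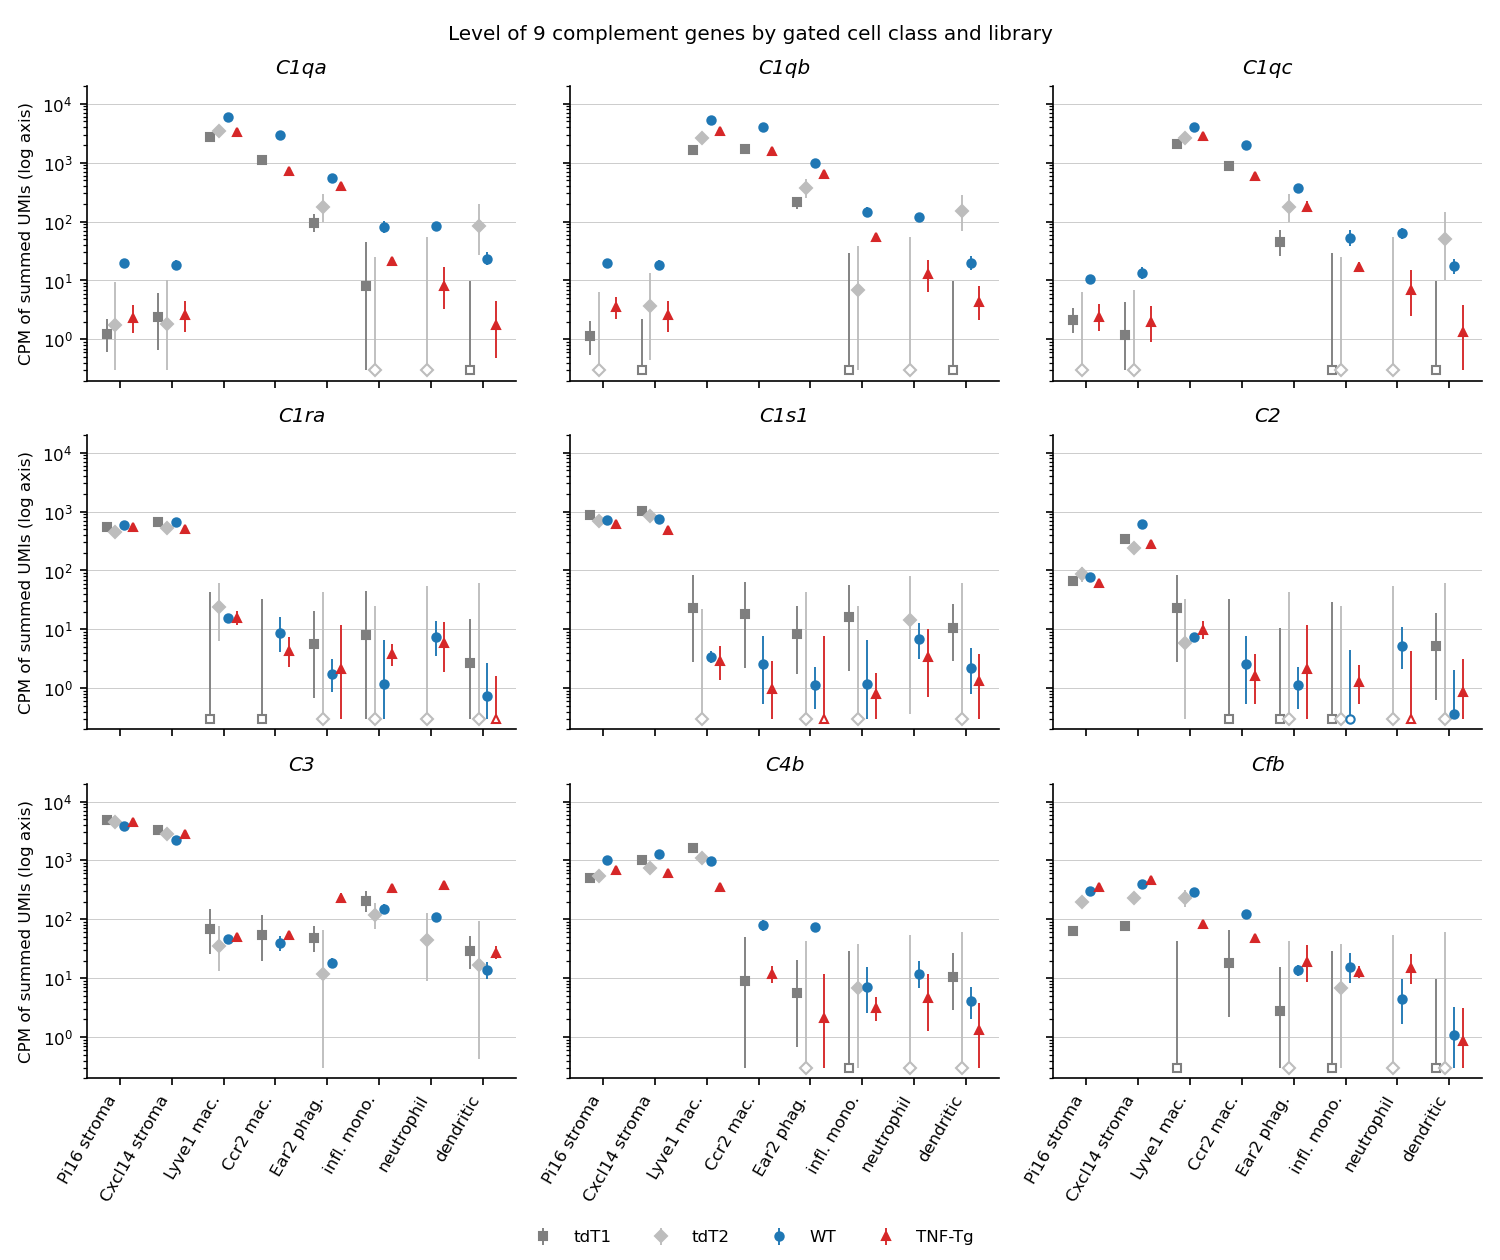
CPM of summed UMIs (log axis) of each gene in 8 gated cell classes, 1 point per library with at least 10 cells, with 95% exact Poisson intervals for counting error; open symbols at the bottom are counts of 0. C1q chains peak in Lyve1 macrophages, except C1qb in tdT1 (1687 CPM in 12 Ccr2 against 1613 in 17 Lyve1 macrophages), C1ra, C1s1, C2 and C3 peak in the stromal classes, and C4b and Cfb are counted in both stroma and Lyve1 macrophages, except Cfb in the Lyve1 macrophages of tdT1.

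C1q in macrophages was lower in the TNF-Tg library than in the WT library, with a different ratio in each macrophage class. Over all macrophages, the 3 chains summed to 14889 CPM in WT against 6379 in TNF-Tg, a log2 ratio of -1.22 (-1.24 to -1.21). C1q messages made up 1.49% of all macrophage UMIs in WT and 0.638% in TNF-Tg. Each chain was past 2-fold, C1qa at -1.47, C1qb at -1.03 and C1qc at -1.17, where 8.14% of 10407 genes with at least 50 UMIs were at least 2-fold lower in TNF-Tg. With stricter marker thresholds the ratio of the sum was -0.90, short of 2-fold. The makeup of the class differed as well, with 1520 Lyve1 and 98 Ccr2 macrophages in WT against 278 and 211 in TNF-Tg. This split depends on the marker thresholds, since only macrophages under the Lyve1 threshold could enter the Ccr2 class. Seurat clustering gave a macrophage cluster of 1115 WT and 264 TNF-Tg cells and another of 511 and 334. Both were assigned to the Lyve1 class.

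Within Lyve1 macrophages the difference was smaller. C1qa was 2681 CPM (tdT1), 3447 (tdT2), 5880 (WT) and 3251 (TNF-Tg). C1qb was 1613, 2581, 5305 and 3452 CPM in the same libraries, and C1qc was 2054, 2658, 4085 and 2802 CPM. For each chain WT was the highest of the 4 libraries, and TNF-Tg lay within the range of the 3 libraries without the transgene. The tdT1 and tdT2 cells were sorted by the reporter, and 7 of the 17 cells in tdT1 were low-quality cells. That range is therefore not the spread between like libraries. The log2 ratios of TNF-Tg to WT were -0.85 (-0.88 to -0.83) for C1qa, -0.62 (-0.65 to -0.59) for C1qb and -0.54 (-0.57 to -0.51) for C1qc, all short of 2-fold. The median over all genes in this class was 0.05. In the same cells 5 inflammatory monocyte markers summed to 239 CPM in WT against 310 in TNF-Tg and 6 neutrophil markers to 281 and 393 CPM, with none at 0, and their part in the C1q values was not tested. Counted per cell, the summed chains had a median of 148 UMIs per 10000 in WT, 92.3 in TNF-Tg and 82.3 in tdT2. Almost every Lyve1 macrophage carried the message: at 3000 UMIs per cell, 99.9% of WT and 97.3% of TNF-Tg cells had a C1qa UMI.

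Ccr2 macrophages showed the wider gap. C1qa was 2951 CPM in WT against 715 in TNF-Tg, a log2 ratio of -2.04 (-2.12 to -1.97). The ratio was -1.32 (-1.38 to -1.26) for C1qb, which stood at 3963 and 1588 CPM, and -1.72 (-1.81 to -1.63) for C1qc, at 1987 and 604 CPM. All 3 chains were thus past 2-fold lower, as were 5.85% of 6551 genes. The cells were also uneven: 9.18% of WT and 31.3% of TNF-Tg Ccr2 macrophages had no C1q UMI, and the median per 10000 UMIs was 80.1 and 10.6. A list of 5 inflammatory monocyte markers, which shares Ccr2 with the gate, summed to 2459 CPM in WT against 2585 in TNF-Tg Ccr2 macrophages with none at 0. A list of 6 neutrophil markers summed to 58.7 and 118 CPM there, with Retnlg and Cxcr2 at 0 in WT, and their part in the C1q values was not tested either. In tdT1, with 12 such cells, C1qa was 1131 CPM, C1qb 1687 CPM and C1qc 880 CPM, between WT and TNF-Tg for all 3 chains. In tdT2, with only 5 such cells, they were 534, 1029 and 267 CPM, below TNF-Tg for all 3.

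**Figure D2:**
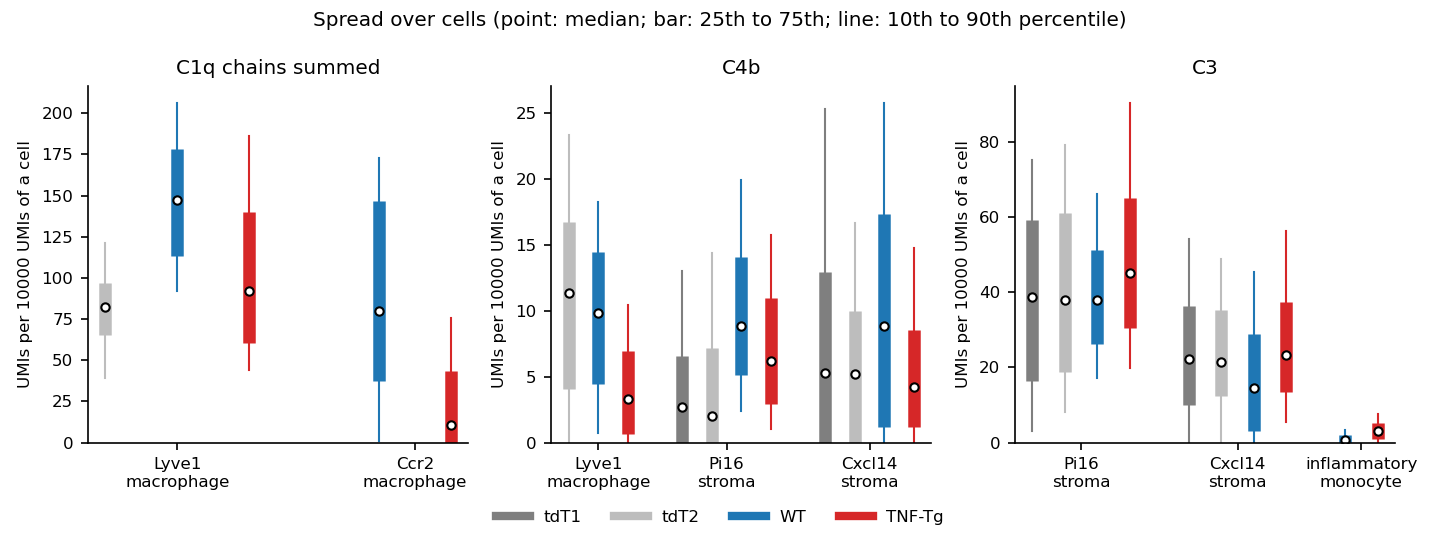
UMIs per 10000 UMIs of a cell, for classes with at least 20 cells: white points are medians, bars the 25th to 75th and lines the 10th to 90th percentile over cells. The C1q median in Ccr2 macrophages is 80.1 in WT and 10.6 in TNF-Tg, that of C4b in Lyve1 macrophages 9.87 and 3.32, and that of C3 in inflammatory monocytes 0.722 and 2.97.

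The comparison of the macrophage classes rests on 2 libraries, WT and TNF-Tg, the ones with at least 20 cells of each class. Of 9854 genes, 14.4% differed. C1qa was 1.42 ± 0.27 higher in Lyve1 than in Ccr2 macrophages on the log2 scale (edgeR adjusted p = 0.0208) and C1qc 1.46 ± 0.27 higher (edgeR adjusted p = 0.0192). For C1qb the difference was 0.60 ± 0.19 and did not pass (edgeR adjusted p = 0.0835), although it did without the filter on low counts (edgeR adjusted p = 0.00264). The ratio of C1qb to C1qa UMIs, which compares the chains within a library, differed between the classes. In Lyve1 macrophages it was 0.602 (tdT1), 0.749 (tdT2), 0.902 (WT) and 1.06 (TNF-Tg). In Ccr2 macrophages it was 1.49, 1.93, 1.34 and 2.22. It was higher in Ccr2 than in Lyve1 macrophages in all 4 libraries, and higher in TNF-Tg than in WT in both classes, with counting intervals that did not overlap. Ear2 phagocytes, a class gated by Ear2 alone, had ratios of 2.21, 2.13, 1.79 and 1.62, and inflammatory monocytes 1.82 in WT and 2.58 in TNF-Tg. The ratio of C1qc to C1qa was also higher in TNF-Tg than in WT, at 0.862 against 0.695 in Lyve1 and 0.844 against 0.673 in Ccr2 macrophages, without overlap of the intervals. Between the 2 macrophage classes of WT, and between those of TNF-Tg, its intervals overlapped.

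**Figure D3:**
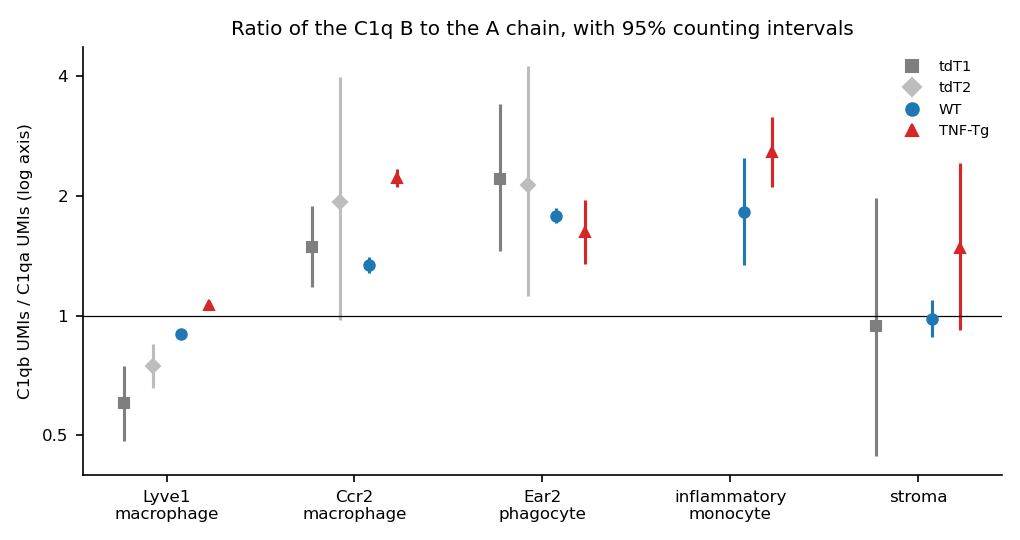
Ratio of C1qb to C1qa UMIs (log axis) in 5 cell classes, 1 point per library with 95% exact binomial intervals for counting error; the line marks equal counts. Lyve1 macrophages lie between 0.602 and 1.06, below the Ccr2 macrophages of the same library, and WT stroma lies at 0.983.

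C1q UMIs were also counted in stromal cells, at levels that differed between libraries. C1qa was 1.48 CPM (tdT1), 1.49 (tdT2), 21.9 (WT) and 2.33 (TNF-Tg) in stroma. C1qb was 1.39, 1.49, 21.5 and 3.45 CPM, and C1qc 2.17, 0, 13.8 and 2.33 CPM. The 0 in tdT2 comes from 247 cells, where the upper bound of the exact interval is 2.74 CPM. WT was the highest library for each chain, and it was also the library with the most macrophages. The test between Pi16 and Cxcl14 stroma called no C1q chain (edgeR adjusted p = 0.952 for C1qa, 0.888 for C1qb and 0.766 for C1qc), and these p-values do not show equal levels.

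Set against the macrophages of the same library, the summed chains in stroma were at 0.384% (0.367 to 0.403) of the macrophage level in WT and 0.127% (0.104 to 0.154) in TNF-Tg. In cell clusters made with Seurat in place of the marker classes the shares were closer, at 0.397% and 0.364%. Other macrophage genes not used for sorting cells had similar shares. The genes Lyz2, Pf4, Ctss, Ms4a7, Tyrobp, Fcer1g, Trem2 and Fcgr3 were at 0.356% to 0.678% of their macrophage level in WT stroma, with a median of 0.462%. In TNF-Tg stroma they were at 0.120% to 0.378%, with a median of 0.239%. The C1q shares lay inside or just below those ranges, with C1qa at 0.384% and 0.113%, C1qb at 0.412% and 0.135% and C1qc at 0.348% and 0.132%. The ratio of C1qb to C1qa in WT stroma was 0.983 (0.882 to 1.09), between the Lyve1 and Ccr2 macrophage values of that library. Dendritic cells carried the 3 chains at 60.7 CPM in WT against 7.44 in TNF-Tg, close to the 57.2 and 8.11 CPM of stroma. Other classes held more: T cells 80.7 and 12.8 CPM, and neutrophils 265 and 27.7 CPM. Inflammatory monocytes held 282 CPM in WT against 94.1 in TNF-Tg, a log2 ratio of -1.58 (-1.80 to -1.36). Ear2 phagocytes held 1892 and 1220 CPM, a log2 ratio of -0.63 (-0.76 to -0.51). Lower C1q in TNF-Tg was thus not particular to the macrophage classes. Mast cells of WT held C1qa at 109, C1qb at 202 and C1qc at 143 CPM. The level outside macrophages was thus not the same in every class. At 3000 UMIs per cell, 5.20% of WT and 0.701% of TNF-Tg stromal cells had a C1qa UMI, against 6.67% and 1.35% of T cells, which do not make C1q. Without thinning the stromal shares were 19.7% and 2.78% and the T cell shares 19.4% and 2.67%, at median depths of 14627 and 11603 UMIs in stroma and 8619 and 6488 UMIs in T cells. Once thinned, the stromal shares were below those of T cells, which numbered only 62 in WT and 75 in TNF-Tg before thinning. The T cell shares therefore rest on very few cells with a UMI. Whether they differ from the stromal shares was not tested. Between the TNF-Tg and WT libraries the log2 ratio for C1q in stroma was -2.82 (-3.11 to -2.54). Whether stroma expresses C1q was not tested, and neither the shares nor this ratio are read as expression here. In WT stroma 57.9% of cells had no C1q UMI, but 24 cells with at least 5 UMIs held 26.9% of the 1799 counted, with up to 153 in a cell. In TNF-Tg stroma 90.6% of cells had none and no cell had 5. Where these UMIs came from was not tested.

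**Figure D4:**
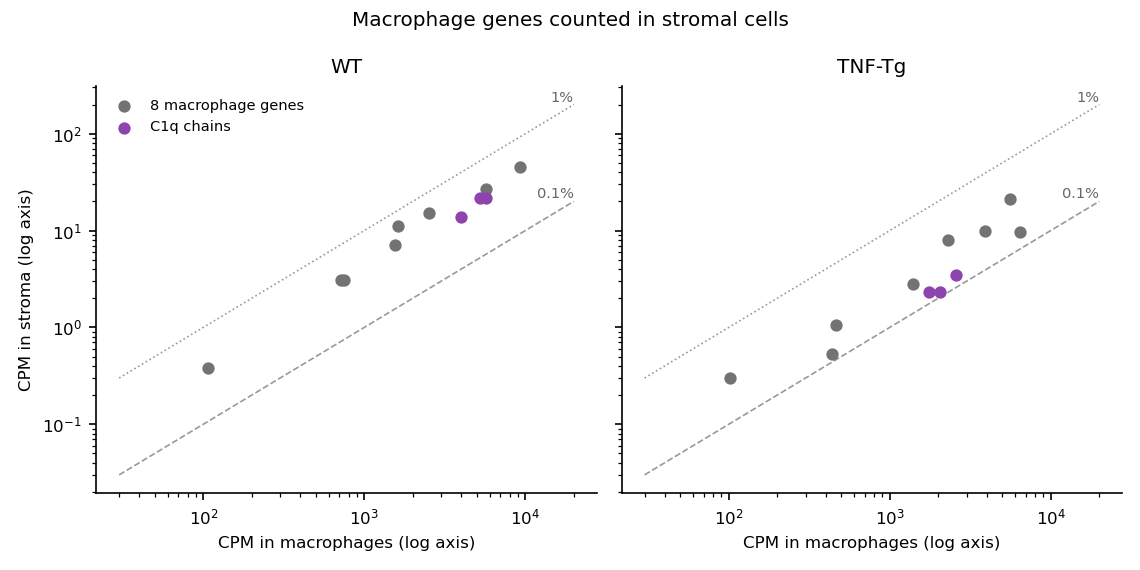
CPM in stroma (vertical, log axis) against CPM in macrophages (horizontal, log axis) for the C1q chains and 8 other macrophage genes, in WT and TNF-Tg; lines mark 1% and 0.1% of the macrophage level. The C1q chains lie with the other genes, at 0.348% to 0.412% in WT and 0.113% to 0.135% in TNF-Tg.

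The proteases C1r and C1s were almost wholly stromal, and 94.3% of C1ra and 95.7% of C1s1 UMIs of the WT library were in stromal cells. C1ra was 549 CPM (tdT1), 446 (tdT2), 585 (WT) and 543 (TNF-Tg) in Pi16 stroma, and 652, 527, 677 and 500 CPM in Cxcl14 stroma. C1s1 was 879, 684, 710 and 611 CPM in Pi16 stroma, and 1040, 837, 750 and 495 CPM in Cxcl14 stroma. Neither gene passed the test between Pi16 and Cxcl14 stroma, with differences of -0.22 ± 0.13 for C1ra (edgeR adjusted p = 0.254) and -0.15 ± 0.13 for C1s1 (edgeR adjusted p = 0.489). TNF-Tg over WT, the log2 ratio was -0.11 (-0.16 to -0.05) for C1ra and -0.22 (-0.27 to -0.17) for C1s1 in Pi16 stroma. In Cxcl14 stroma it was -0.44 (-0.51 to -0.36) and -0.60 (-0.67 to -0.53). None was past 2-fold, and the median over all genes was -0.02 in Pi16 and -0.18 in Cxcl14 stroma. C1s1 in the TNF-Tg library lay below all 3 other libraries in both classes, a place that 30% of 9342 genes in Pi16 stroma and 39.9% of 6035 in Cxcl14 stroma also took.

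C2 and C4b encode the parts of the classical C3 convertase, and both were lower in TNF-Tg than in WT Cxcl14 stroma, by ratios near 2-fold. C2 was 66.5 CPM (tdT1), 86.2 (tdT2), 77.2 (WT) and 61.7 (TNF-Tg) in Pi16 stroma, against 339, 242, 616 and 285 CPM in Cxcl14 stroma. The classes did not overlap, and the difference was -2.43 ± 0.19 on the log2 scale (edgeR adjusted p = 1.5e-07), in a comparison that called 22.6% of 11542 genes. C2 was lower in Pi16 than in Cxcl14 stroma of all 4 libraries. Outside stroma, C2 was 101 CPM in the 86 mast cells of WT, at a median depth of 1046.5 UMIs. C4b was 495, 538, 1002 and 700 CPM in Pi16 stroma and 997, 744, 1262 and 601 CPM in Cxcl14 stroma, and its difference of -0.47 ± 0.16 did not pass the test (edgeR adjusted p = 0.0507), though it did without the TNF-Tg library (edgeR adjusted p = 0.0336). In Cxcl14 stroma the TNF-Tg to WT log2 ratio was -1.11 (-1.21 to -1.02) for C2 and -1.07 (-1.13 to -1.01) for C4b, both past 2-fold, where 9.96% of 9315 genes were at least 2-fold lower. The ratio of C2 was short of 2-fold as a mean over cells (-0.93), with TMM scaling of the library totals (-0.94) and in Seurat clusters (-0.89). That of C4b was short of it as a mean over cells (-0.90), with TMM scaling (-0.90) and with cells thinned to 3000 UMIs (-0.94). For C2 TNF-Tg lay within the range of the other 3 libraries, and for C4b below it. In Pi16 stroma the ratios were -0.32 (-0.48 to -0.17) and -0.52 (-0.56 to -0.47), and 3.68% of 10906 genes were at least 2-fold lower.

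C3, the central component of all complement pathways, was higher in Pi16 than in Cxcl14 stroma. It was 4948 CPM (tdT1), 4545 (tdT2), 3907 (WT) and 4557 (TNF-Tg) in Pi16 stroma, and 3305, 2767, 2190 and 2757 CPM in Cxcl14 stroma. The order held in every library, and the difference was 0.64 ± 0.13 on the log2 scale (edgeR adjusted p = 0.00211). WT was the lowest library in both classes. The TNF-Tg to WT log2 ratio was 0.22 (0.20 to 0.24) in Pi16 and 0.33 (0.30 to 0.37) in Cxcl14 stroma, within the range of the libraries without the transgene. Stromal cells varied widely: the 10th to 90th percentile over Pi16 cells was 17.3 to 66.2 UMIs per 10000 in WT and 19.8 to 90.4 in TNF-Tg, and 17.9% of WT and 4.46% of TNF-Tg Cxcl14 cells had no C3 UMI.

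Cfb was 63.0 CPM (tdT1), 196 (tdT2), 299 (WT) and 351 (TNF-Tg) in Pi16 stroma, and 77.5, 228, 395 and 461 CPM in Cxcl14 stroma. TNF-Tg was the highest library in both classes, a place that 27.7% and 29.4% of genes took, while the libraries without the transgene differed among themselves by 4.75-fold and 5.09-fold. The TNF-Tg to WT log2 ratios were 0.23 (0.16 to 0.30) and 0.22 (0.14 to 0.31). Cfb was lower in Pi16 than in Cxcl14 stroma by 0.41 ± 0.13 on the log2 scale (edgeR adjusted p = 0.0321), a call lost when any 1 of the 4 libraries was left out. Over all stroma, the 6 members other than C1q summed to 6466 CPM in WT against 5969 in TNF-Tg, a log2 ratio of -0.12 (-0.13 to -0.10). The median over all genes in stroma was -0.10. By class, the ratio of the sum had opposite directions, 0.05 (0.04 to 0.07) in Pi16 and -0.21 (-0.23 to -0.18) in Cxcl14 stroma. The mix of the classes differed as well, with 1427 and 524 such cells in WT against 491 and 426 in TNF-Tg.

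**Figure D5:**
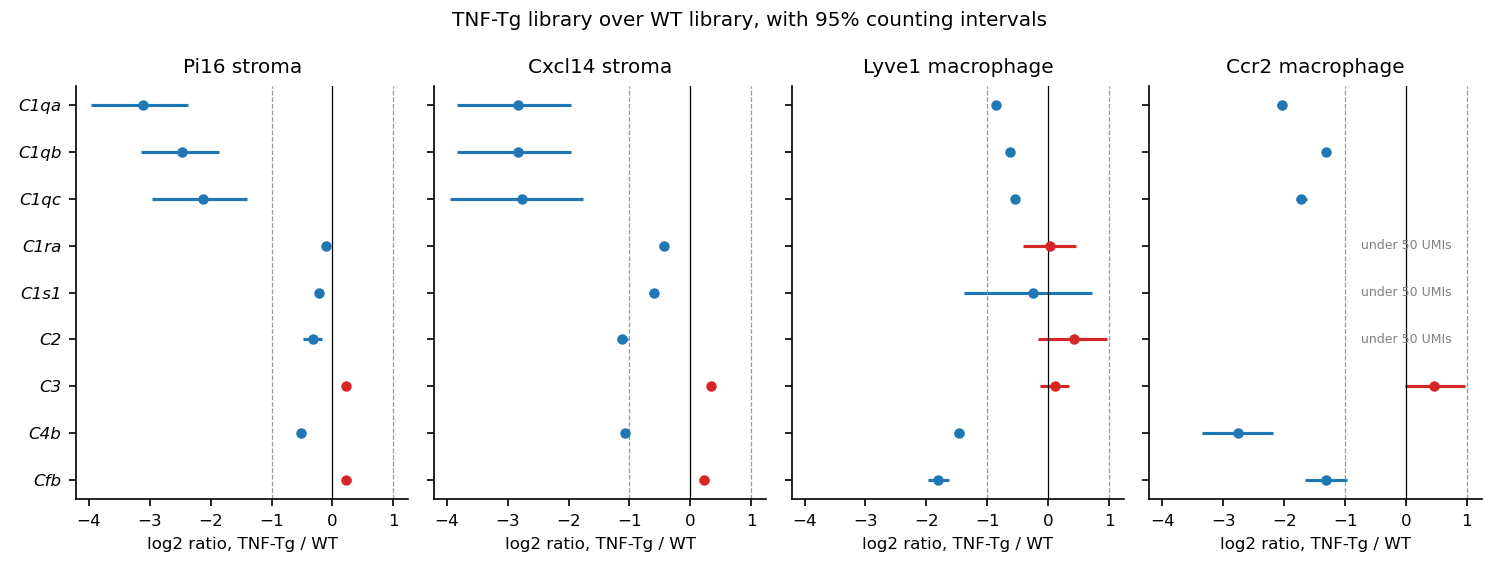
Log2 ratio of CPM, TNF-Tg over WT, of the 9 genes in 4 cell classes, with 95% exact binomial intervals for counting error; dashed lines mark 2-fold, blue is lower and red higher in TNF-Tg. In Cxcl14 stroma C2 and C4b pass 2-fold as do the C1q chains, and in Lyve1 macrophages C4b (-1.47) and Cfb (-1.80) lie farther from 0 than the C1q chains.

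C4b and Cfb were also macrophage genes, and in Lyve1 macrophages they had the lowest TNF-Tg to WT ratios of the 9 members. C4b was 1625 CPM (tdT1), 1104 (tdT2), 983 (WT) and 355 (TNF-Tg) in Lyve1 macrophages. TNF-Tg was below all 3 other libraries, as for 21.4% of 7798 genes, and its log2 ratio to WT was -1.47 (-1.55 to -1.39). Cfb was 0, 231, 293 and 83.9 CPM, a log2 ratio of -1.80 (-1.98 to -1.63). The 0 in tdT1 comes from 17 cells, where the upper bound of the exact interval is 42.8 CPM. Both genes were past 2-fold, where 4.54% of 10126 genes were at least 2-fold lower in TNF-Tg. The 8 stromal references, genes such as Sparc, Col6a1 and Fstl1, were at 0.251% to 2.14% of their stromal level in WT Lyve1 macrophages, while C4b was at 90.1% and Cfb at 90.6%. C1s1 was at 0.477%, C3 at 1.32%, C1ra at 2.57% and C2 at 3.94%. A list of 8 stromal markers summed to 126 CPM in WT against 79.6 in TNF-Tg Lyve1 macrophages, with none at 0.

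At 3000 UMIs per cell, 80.6% of WT and 56.8% of TNF-Tg Lyve1 macrophages had a C4b UMI, against 0.602% and 1.18% of dendritic cells. Without thinning the shares were 90.7% and 78.4% against 5.92% and 1.73%, at median depths of 12428 and 11371.5 UMIs in Lyve1 macrophages and 15798 and 12423 UMIs in dendritic cells. C4b was 4.03 ± 0.30 higher in Lyve1 than in Ccr2 macrophages on the log2 scale (edgeR adjusted p = 0.00125) and Cfb 0.87 ± 0.19 higher (edgeR adjusted p = 0.0309). Ccr2 macrophages held C4b at 79.7 CPM in WT against 11.8 in TNF-Tg, and Cfb at 121 and 48.6 CPM. Of all C4b UMIs of a library, macrophages held 33.5% in WT and 11.8% in TNF-Tg, and stroma 61.2% and 81.3%. The gene C4a, nearly identical to C4b, was counted at 0.0729% of the C4b UMIs in WT stroma. Reads of such pairs, C1ra with C1rb and C1s1 with C1s2 among them, can be split or lost in counting, so their absolute levels are uncertain.

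C3 was counted outside stroma as well, in myeloid cells of all 4 libraries. In inflammatory monocytes it was 207 CPM (tdT1), 117 (tdT2), 152 (WT) and 334 (TNF-Tg). In neutrophils it was 170, 44.1, 109 and 383 CPM, and in Ear2 phagocytes 47.8, 11.7, 18.2 and 234 CPM. TNF-Tg was the highest library in all 3 classes, but the share of all genes with that place was not computed for them. The tdT1 and tdT2 values rest on few cells: 10 and 19 inflammatory monocytes, 8 and 29 neutrophils, and 21 and 11 Ear2 phagocytes. Ear2 phagocytes numbered 334 in WT and 43 in TNF-Tg. The log2 ratio to WT was 1.13 (0.88 to 1.40) in inflammatory monocytes, 1.81 (1.52 to 2.10) in neutrophils and 3.69 (3.30 to 4.08) in Ear2 phagocytes, where 3.6%, 7.4% and 5.26% of genes were at least 2-fold higher in TNF-Tg. Stromal genes were also counted in these classes. The list of 8 stromal markers summed to 77.4 CPM in WT against 48.5 in TNF-Tg inflammatory monocytes, 201 and 99.2 CPM in neutrophils, and 68.4 and 61.2 CPM in Ear2 phagocytes, lower in TNF-Tg in all 3 classes. Lum was at 0 in WT inflammatory monocytes, Pdgfrb in WT and Pdgfra, Pdgfrb and Prrx1 in TNF-Tg Ear2 phagocytes. Other lists differed too. The 5 inflammatory monocyte markers summed to 1797 CPM in WT against 3605 in TNF-Tg Ear2 phagocytes, and 267 and 962 CPM in neutrophils. In inflammatory monocytes, whose gate uses some of them, they were lower in TNF-Tg, at 7302 and 4923 CPM. The 6 macrophage markers summed to 214 and 456 CPM in neutrophils and 1314 and 1157 CPM in Ear2 phagocytes. Their part in the C3 values was not tested. In Lyve1 macrophages C3 was 46.7 CPM in WT against 50.5 in TNF-Tg, and in dendritic cells 14.0 and 27.2 CPM. Stromal cells held 86.8% of all C3 UMIs in TNF-Tg.

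Across 33 class sums of the WT and TNF-Tg libraries, the genes with the pattern of log2(CPM + 1) most like that of C1qa among 10052 genes were C1qc (Pearson r = 0.989), C1qb (0.981), Ccl24 (0.951), Mrc1 (0.936) and Pf4 (0.933). For C3 they were Rhou (0.956), Zfp503 (0.952), Ace (0.945), Ptges (0.916) and Mgst1 (0.914). The other stromal members were less like C3 than many other genes: C1ra had 0.872 (rank 88), C1s1 0.818 (rank 508), Cfb 0.807 (rank 558), C2 0.750 (rank 775) and C4b 0.686 (rank 994). The class sums share libraries, so these values only describe likeness. Mrc1 was among the markers used for sorting macrophages, and Ace among those for patrolling monocytes.

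The wider complement list had 52 genes. In the comparison of macrophages with stroma 33 were tested, of which 16 were higher in macrophages, 12 were higher in stroma and 5 did not pass, where 22.9% and 31.3% of all genes tested were higher in one or the other. Receptors were on the macrophage side (8 of 9 tested), with C3ar1 and C5ar1, receptors for the C3 and C5 fragments, 9.01 ± 0.44 and 8.93 ± 0.37 higher on the log2 scale. Serping1, the C1 inhibitor, was 8.38 ± 0.30 lower in macrophages than in stroma, and C7, a part of the membrane attack complex, 9.11 ± 0.36 lower. C6, the neighbour of C7 in that complex, was 8.08 ± 0.31 higher in macrophages. Between Pi16 and Cxcl14 stroma 22 were tested, with 2 higher and 7 lower in Pi16 stroma, against 9.75% and 12.9% of all genes tested. Cd55, a membrane regulator, was 2.93 ± 0.15 higher in Pi16 stroma on the log2 scale.

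TNF-Tg over WT, 9 of 19 listed genes with at least 50 UMIs were at least 2-fold lower in Cxcl14 stroma, against 9.96% of all genes, and 1 was higher, against 3.31%. The 9 include C1qa, C1qb and C1qc, which are not read as expression in stroma. C7 was 1062 CPM in WT against 204 in TNF-Tg Cxcl14 stroma (log2 ratio -2.38) and Clu 99.7 and 24.3 CPM (-2.04). In tdT1 and tdT2 C7 was 324 and 265 CPM, above TNF-Tg. Clu was 22.4 and 37.0 CPM there, so TNF-Tg lay within the range of the other libraries. The gene that was higher was Vtn, at 12.4 and 31.3 CPM (1.34). Vtn was 117 and 70.3 CPM in tdT1 and tdT2, above both WT and TNF-Tg. In Pi16 stroma 4 of 21 were at least 2-fold lower, the C1q chains and C7 (-1.28), against 3.68% of all genes, and 0 were higher, against 3.12%. C7 in Pi16 stroma was 271 CPM (tdT1), 6.89 (tdT2), 337 (WT) and 139 (TNF-Tg). Here TNF-Tg lay within the range of the others only through tdT2, with 104 such cells, and below both tdT1 and WT. Serping1, at 3231 CPM in WT against 2388 in TNF-Tg stroma, had a log2 ratio of -0.44 (-0.45 to -0.42). In Lyve1 macrophages 5 of 26 were at least 2-fold lower, against 4.54% of all genes, C4b and Cfb with C6 (-1.52), C5ar2 (-1.33) and Vsig4 (-1.26), and 2 were higher, Cd55 (1.04) and Cfd (1.96), against 4.33%. C6 was 232 CPM (tdT1), 178 (tdT2), 300 (WT) and 104 (TNF-Tg) in Lyve1 macrophages. Cd55 was 23.2, 83.1, 159 and 326 CPM. For both genes TNF-Tg lay outside the range of the other libraries. C5ar2 was 0, 11.9, 33.5 and 13.3 CPM, Vsig4 81.2, 0, 60.8 and 25.4, and Cfd 11.6, 11.9, 1.85 and 7.21. For these TNF-Tg lay inside that range. The tdT1 and tdT2 values rest on 17 and 46 cells. The median over the listed genes was -0.41 in Lyve1 macrophages, against 0.05 over all genes.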

How the data were processed

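Single cells of digested popliteal lymphatic vessels and saphenous vein were profiled with 10x Genomics 3′ chemistry. The authors deposited filtered matrices of UMI counts per gene and cell, made with Cell Ranger against mm10: the labels name versions 3.1 and 3.1.0, the matrix headers 3.1.0 for tdT1 and 6.0.1 for the other libraries. The labels also name Seurat 4.0.3, whose output was not used here. These deposited counts (14256192, 2357031, 68773605 and 37557627 in tdT1, tdT2, WT and TNF-Tg) were used unfiltered, and doublets called by Scrublet (scanpy 1.11.5; 4, 1, 138 and 72 cells) were left out as an alternative. The effect of the pipeline version cannot be told apart from the tdT1 library itself.

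Cells were classed by summed marker UMIs per 10000, for example at least 32 for stromal and 16 for macrophage markers. Leukocyte markers had to be under 4 for stroma. Macrophages, dendritic cells, inflammatory monocytes and other leukocytes came to 3765 cells together. Of these, 12.6% lay within 1.5-fold of the macrophage threshold, on either side of it. UMIs were summed per class and library and divided by the total to give CPM. WT and TNF-Tg, with 1 library each, were compared by ratios with 95% exact intervals, and a gene was counted past 2-fold only with at least 50 UMIs in both libraries together. Classes were compared by the quasi-likelihood test of edgeR 4.0.16 with TMM scaling, its filter on low counts, library as a block (both classes of a pair come from the same library) and Benjamini-Hochberg adjustment over all genes tested; libraries needed 20 cells in both classes. SEs were derived from the F statistics. The scripts were tested on simulated data. DESeq2 1.42.0, no low-count filter, no block, libraries left out, stricter gates, Seurat 5.3.0 clusters, TMM scaling, thinning and means over cells were alternatives. UMI intervals cover counting error only.

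All 9 members were measured in every class, and not every value is given. Other complement genes were named when they had at least 50 UMIs in stroma or macrophages and were past 2-fold, with up to 3 per role by level, and the genes most like C1qa and C3 by Pearson correlation. The members and lists were chosen with earlier results of these data known. Promoter windows came from RefSeq for 5 of the 9 members.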

Additional observations from a re-analysis of the deposited data

Results flagged for a closer look

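Cfb had opposite directions in stroma and macrophages. Its level was higher in TNF-Tg than in WT in Pi16 stroma (299 CPM in WT, 351 CPM in TNF-Tg) and Cxcl14 stroma (395 and 461 CPM), and lower in Lyve1 macrophages (293 and 83.9 CPM) and Ccr2 macrophages (121 and 48.6 CPM). The log2 ratio in Pi16 stroma exceeded that in Lyve1 macrophages by 2.03 and that in Ccr2 macrophages by 1.54. The ratio in Cxcl14 stroma exceeded them by 2.02 and 1.54. With 1 library per genotype, the difference was not tested.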

How the results depend on the processing

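TNF-Tg to WT ratios were recomputed for summed C1q in macrophages and Lyve1 macrophages, the stromal sum, the C1q chains, C4b and Cfb in Lyve1 macrophages and the 6 members other than C1q in both stromal classes, and these kept their direction under the 6 or 7 alternatives tried for each. The log2 ratio of summed C1q in macrophages (-1.22) was -1.06 as a mean over cells, -1.21 with TMM scaling, -1.05 with cells thinned to 3000 UMIs, -0.90 with stricter gates and -1.40 in Seurat clusters, and that of the stromal sum (-0.12) was -0.0050, -0.042, -0.029 and -0.13 under the former 4. The stromal share of C1q in WT (0.384%) was 0.779% as a mean over cells, 0.294% with stricter gates and 0.331% without doublets, and that in TNF-Tg (0.127%) was 0.216% as a mean over cells, 0.0954% with stricter gates and 0.364% in Seurat clusters (0.397% in WT). Leaving out each library gave 5037 to 6743 genes for macrophages against stroma (6991 with all) and 1474 to 2424 for Pi16 against Cxcl14 stroma (2611 with all; 1474 without WT and 1692 without TNF-Tg). Without the library block, the block that pairs the classes of a library, counts were 4895, 542 and, for Lyve1 against Ccr2 macrophages (1421), 125, and the calls of Cfb, of C3 between stromal classes and of C1qa, C1qc and C4b between macrophage classes were lost. Without the filter on low counts, Lyve1 against Ccr2 macrophages gave 2285. Reversals were C4b between macrophages and stroma without TNF-Tg (0.0071, in a range from -0.87 over left-out libraries), and C1qb between stromal classes without the block (-0.056) and with stricter gates (-0.015). The causes were not tested. No paired analysis was possible because WT and TNF-Tg have 1 library each. For Lyve1 against Ccr2 macrophages, stricter gates and left-out libraries could not be run, with too few cells or libraries, and Seurat clusters did not split the macrophage classes. Depth limits C1ra, C1s1 and C2 in Ccr2 macrophages, under 50 UMIs each.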

Other observations

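C3 was also counted in patrolling monocytes, a class with Treml4, Spn and Ace. It was 376 CPM (350 to 404) in the 233 such cells of the TNF-Tg library, and 28.6, 140 and 86.6 CPM in the 9, 6 and 11 cells of tdT1, tdT2 and WT, from 2, 5 and 6 UMIs. Cfb was 39.1 CPM (31.0 to 48.6) in the TNF-Tg cells and was counted at 0 in the other libraries, where the upper bounds of the exact intervals were 52.8, 103 and 53.2 CPM.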
